A study of Mus musculus with 24 samples.

Results

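The genes of cholesterol biosynthesis and of its control by SREBP2 were followed in bone marrow-derived macrophages (BMDMs) from wildtype and AhR-deficient mice. The 27 genes were taken by symbol from general knowledge of the pathway, with earlier results of these data known, out of 55421 genes in the count table, and all 27 passed the filter on low counts. RNA sequencing covered 24 libraries in 4 groups of 6, which were unstimulated wildtype, unstimulated AhR-deficient, LPS-stimulated wildtype and LPS-stimulated AhR-deficient BMDMs. The wildtype mice were C57BL/6J. The AhR-deficient mice carried the Ahr tm1Bra allele on a C57BL/6 background in every cell of the body, so the bone marrow precursors lacked the receptor too. The study used adult mice of both sexes, with 6 animals per group from 1 experiment. Bone marrow of all 4 groups was differentiated with GM-CSF (10 ng/ml) and TGF-β1 (2 ng/ml), which gives alveolar-like macrophages. LPS at 97 EU/ml was added on day 6 for 24 h, and a Ca2+ ionophore at 5 µM was present for the last 10 min. The labels carry the same ionophore step for the unstimulated libraries. The sources used here do not say whether the same animals gave both the unstimulated and the stimulated cultures. Where separate origin is not stated, p-values measure only the spread between these libraries.

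Cells make cholesterol from acetyl-CoA. The first steps lead through mevalonate to isoprenyl diphosphates, squalene synthase and squalene epoxidase then commit the carbon to sterols, and a chain of reductases, demethylases and isomerases turns lanosterol into cholesterol. The transcription factor SREBP2, encoded by Srebf2, switches on nearly all of these genes when sterol in the endoplasmic reticulum is low: its escort Scap carries it to the Golgi for cleavage, and the Insig proteins hold both back when sterol is plentiful. In macrophages the pathway is known to respond to Toll-like receptor ligands, to interferons and to oxysterols made by Ch25h.

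Promoter sequence was read for the members from RefSeq (build GRCm38.p6, the coordinates of mm10) as 300 bases, 250 before and 50 after the annotated start. For 23 of the 27 members a promoter was matched, and none was used for Fdft1, Fdps, Sqle and Stard4. The 250 bases before the start are shown for 4 genes that stand for the responses described below. Hmgcs1 and Cyp51 fell further in AhR-deficient BMDMs, and Insig1 was the gene of SREBP2 control that fell in both genotypes. Dhdds passed in no comparison of the main fit. Hmgcs1 lies at chr13:119690101-119690350 on the plus strand, with a sterol response element (SRE, TCACNCCAC) and the CCAAT boxes in capitals. Cyp51 lies at chr5:4104698-4104947 on the minus strand and Dhdds at chr4:134000883-134001132 on the minus strand, both with CCAAT boxes in capitals. Insig1 lies at chr5:28071162-28071411 on the plus strand, with a shortened SRE core (CACNCCAC) and the CCAAT box in capitals. Capitals that read ATTGG or start with GTGG are matches on the other strand.
Hmgcs1: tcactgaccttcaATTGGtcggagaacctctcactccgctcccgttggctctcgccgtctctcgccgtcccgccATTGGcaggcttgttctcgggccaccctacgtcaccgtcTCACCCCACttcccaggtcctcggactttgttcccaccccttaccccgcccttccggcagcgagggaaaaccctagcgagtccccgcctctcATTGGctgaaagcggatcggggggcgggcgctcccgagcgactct
Cyp51: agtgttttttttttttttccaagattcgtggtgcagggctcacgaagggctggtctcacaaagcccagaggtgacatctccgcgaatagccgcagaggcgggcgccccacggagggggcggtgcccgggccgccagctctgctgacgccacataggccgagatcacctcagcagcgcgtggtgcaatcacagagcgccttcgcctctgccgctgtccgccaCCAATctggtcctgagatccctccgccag
Insig1: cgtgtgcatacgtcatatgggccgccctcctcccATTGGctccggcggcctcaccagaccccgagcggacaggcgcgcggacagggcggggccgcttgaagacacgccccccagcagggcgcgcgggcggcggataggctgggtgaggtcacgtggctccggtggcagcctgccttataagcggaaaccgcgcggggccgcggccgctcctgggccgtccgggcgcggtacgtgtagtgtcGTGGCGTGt
Dhdds: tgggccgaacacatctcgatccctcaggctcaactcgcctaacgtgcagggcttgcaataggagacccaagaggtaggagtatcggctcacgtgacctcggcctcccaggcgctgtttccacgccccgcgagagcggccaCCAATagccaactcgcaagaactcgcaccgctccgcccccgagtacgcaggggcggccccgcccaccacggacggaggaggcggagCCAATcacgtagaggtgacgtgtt

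The 23 genes have 29 promoters in the table, and a gene was counted if any of its promoters held the letters. The letters were searched on both strands, and the shortened core lies within the full SRE. CCAAT, the box bound by NF-Y, occurred for 20 of the 23 genes against 41.1% of 27025 genes with a promoter, and GGGCGG, the Sp1 box, for 20 of 23 against 38.2%. The full SRE occurred in 1, Hmgcs1, at position -137 from the start, against 1.44% of all genes. The shortened core occurred in 3 (Acat2, Hmgcs1 and Insig1) against 7.12%, and GCGTG, the core of the AhR response element, for 14 of 23 against 35.2%. In Insig1, and at 1 of its matches in Acat2, the shortened core overlaps a GCGTG. Of the 14 members with a promoter whose LPS effect differed between genotypes, 13 held CCAAT, 13 GGGCGG and 9 GCGTG, and of the other 9 members these were 7, 7 and 5. These matches describe the letters of the window and are not binding data. The shares of all genes were matched neither for base composition nor for expression in these cells.

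Library depth was between 45106052 and 76992663 counts. Levels are CPM, a gene's counts scaled to a common library size with TMM factors, which ran from 0.704 to 1.30. Macrophage markers summed to between 14100 and 33700 CPM and alveolar macrophage markers to between 3910 and 10400 CPM in every library, and lymphocyte markers to at most 0.553 CPM. Neutrophil markers summed to up to 12600 CPM and dendritic and Langerhans cell markers to up to 2450 CPM. Both are given by group below. Ahr itself was at 28.3 ± 12.2 CPM in unstimulated wildtype, 7.42 ± 2.39 CPM in unstimulated AhR-deficient, 16.8 ± 7.64 CPM in LPS-stimulated wildtype and 43.1 ± 16.2 CPM in LPS-stimulated AhR-deficient BMDMs (mean ± SD, n = 6). Gene-level counts include exons outside the altered part of the allele, so this level does not check the genotype. The AhR target Ahrr was lower in AhR-deficient BMDMs by a log2 fold change of -6.34 without stimulation and -8.19 after LPS (adjusted p = 1.001e-07 and 4.926e-09). The libraries also differed in how the level of all genes ran with gene length. The slope of log2 CPM on log2 length was from 0.0952 to 0.585 and below 0.25 in 5 libraries, which were 19 (unstimulated AhR-deficient), 33 (unstimulated wildtype), 37 and 38 (LPS-stimulated wildtype) and 39 (LPS-stimulated AhR-deficient).

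After LPS the sterol pathway was lower in both genotypes, and it was lower still in AhR-deficient BMDMs. The summed level of the 27 genes was 2340 to 3260 CPM in unstimulated wildtype (median 2520) and 2860 to 3540 CPM in unstimulated AhR-deficient BMDMs (median 2930). With LPS it was 902 to 1240 CPM in wildtype (median 1050) and 645 to 794 CPM in AhR-deficient BMDMs (median 719). Unstimulated and stimulated libraries did not overlap in either genotype, and after LPS neither did the genotypes. In bulk samples, fewer cells that use the pathway and less of its RNA per cell cannot be told apart.

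**Figure D1:**
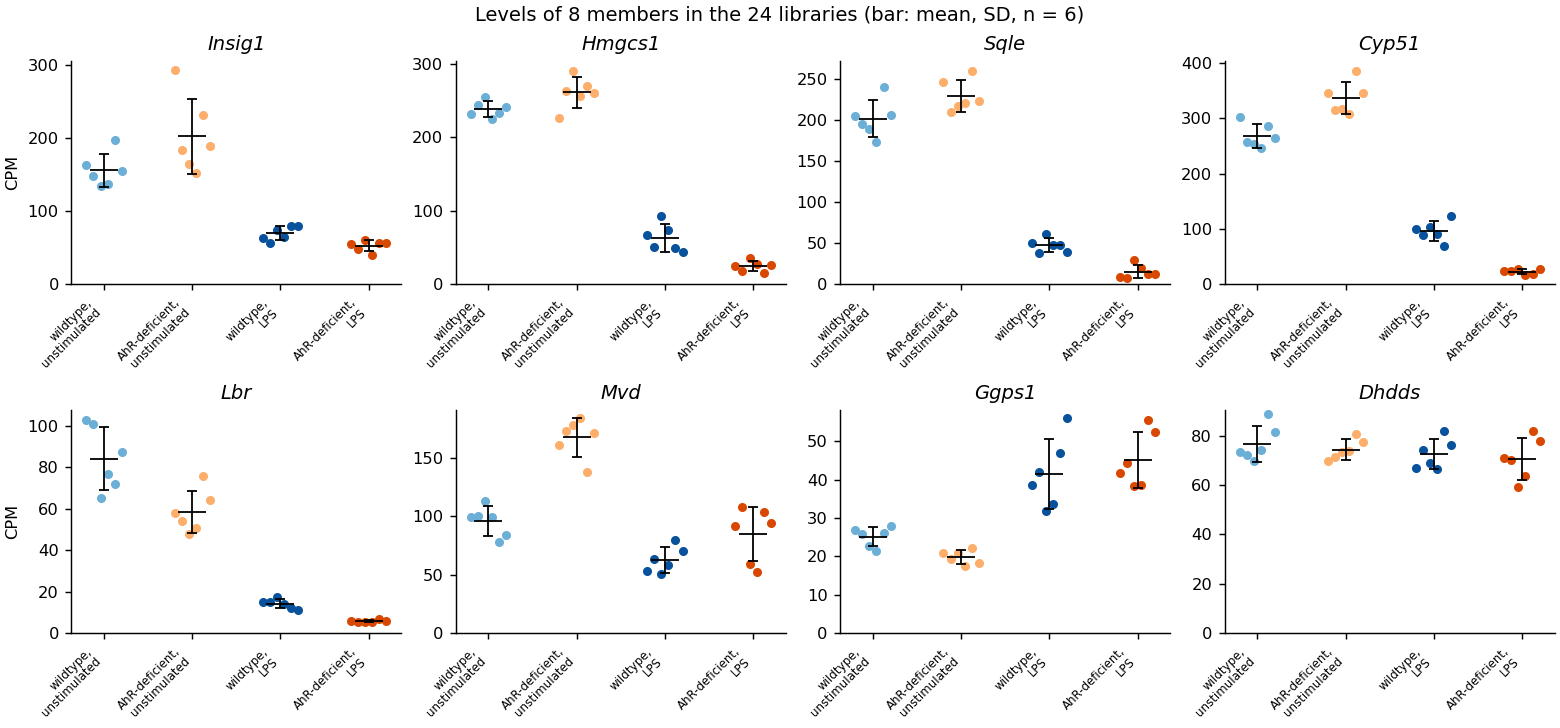
CPM (vertical axis, from 0) of 8 members in each of the 24 libraries, by group, with a point per library and the mean and SD of 6 libraries as a bar. Hmgcs1, Sqle and Cyp51 drop from over 170 CPM in unstimulated libraries to under 125 CPM with LPS and lowest in AhR-deficient BMDMs, while Ggps1 rises and Dhdds stays between 59.3 and 88.9 CPM.

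A gene passed where its adjusted p in edgeR's quasi-likelihood F-test was at most 0.05 (Benjamini-Hochberg over the 16593 genes tested), and was a differentially expressed gene (DEG) where it also changed at least 2-fold. LPS in wildtype BMDMs lowered 20 of the 27 members, against 18.3% of all genes tested, and 18 of them as DEGs, against 11.8%. It raised 1, against 19.7%, which was no DEG (13.2% of all genes). In AhR-deficient BMDMs LPS lowered 22 members, against 22.6% of all genes, 20 of them as DEGs, against 15.7%, and raised 2, against 22.1%, 1 of them as a DEG, against 15.1%. The 20 genes that passed in wildtype also passed in AhR-deficient BMDMs, against 15.4% of all genes that were lower in both. Groups did not overlap, with the LPS libraries lower, for 19 members in wildtype (11.0% of all genes) and for 21 in AhR-deficient BMDMs (14.1%), and with the LPS libraries higher for 1 in each (11.4% and 14.4%). The median log2 fold change of the members was -1.49 in wildtype and -2.90 in AhR-deficient BMDMs, beside 0.03 and -0.03 for all genes tested.

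Between genotypes, 3 members were higher (against 1.83% of all genes) and 1 was lower (against 4.29%) in unstimulated AhR-deficient BMDMs, none of them a DEG (DEGs were 0.916% of all genes higher and 3.57% lower). Without overlap of the groups, 3 were higher (1.71% of all genes) and none was lower (3.44%). After LPS, 15 members were lower, against 8.30%, of which 11 were DEGs, against 6.19%, and none was higher, against 4.33% (2.17% as DEGs), although Insig2 and Mvd were with the length slope as a covariate or without the libraries of low slope. For 13 members every LPS-stimulated AhR-deficient library was below every LPS-stimulated wildtype library (4.53% of all genes), and for none the reverse (2.59%). The interaction asks whether the LPS effect itself differed between genotypes. It passed for 18 of the 27 members, all with the more negative LPS effect in AhR-deficient BMDMs, against 2.34% of all genes. It passed for none in the other direction, against 1.95%. The median of the members was 0.19 for genotype without stimulation, -0.75 after LPS and -1.03 for the interaction, and that of all genes -0.01, -0.05 and -0.05. These comparisons share groups, so their counts are not independent of each other.

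**Figure D2:**
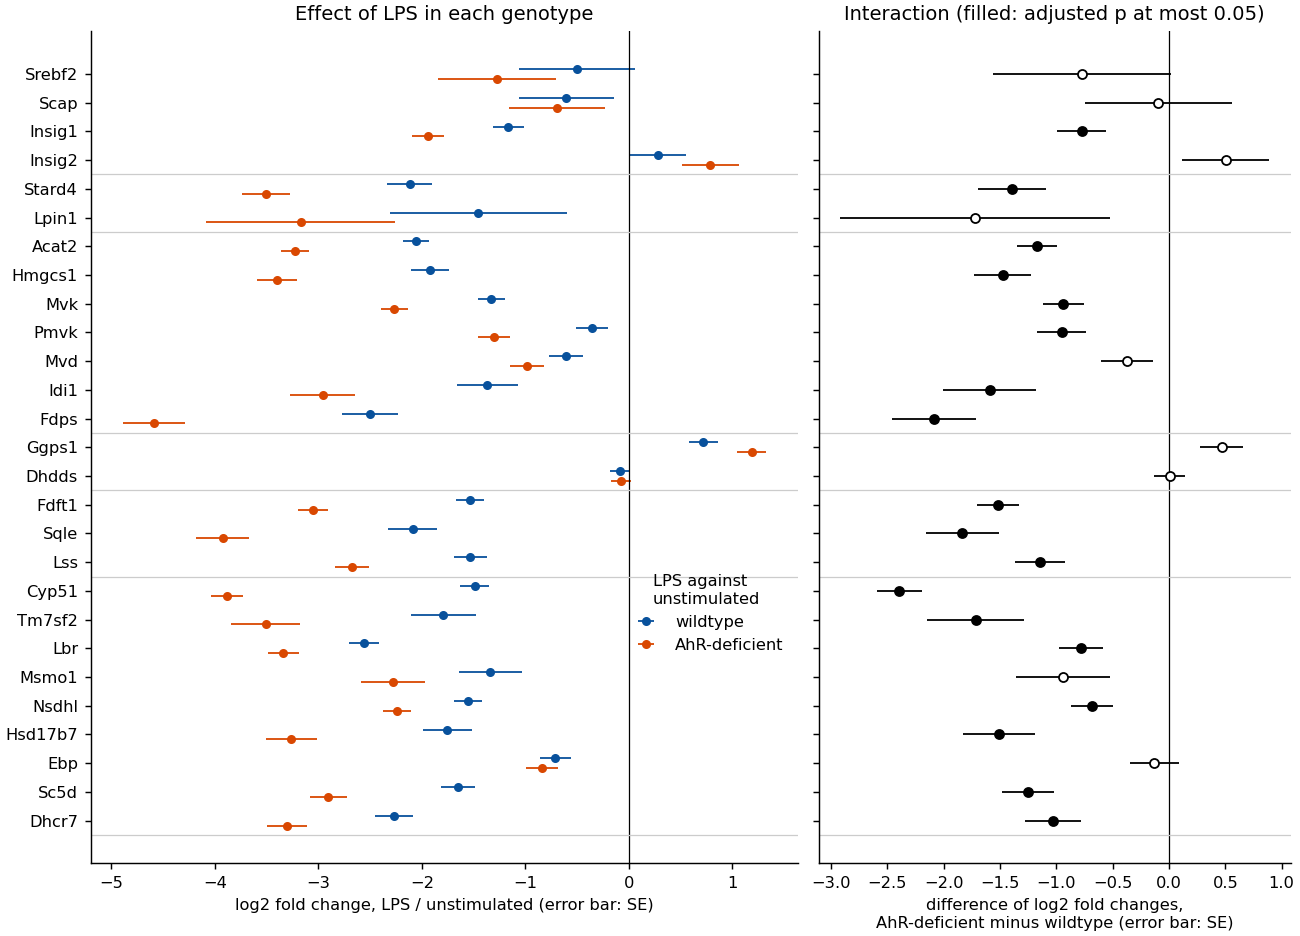
Left, log2 fold change of LPS-stimulated over unstimulated BMDMs (horizontal axis) for the 27 members in wildtype (blue) and AhR-deficient BMDMs (orange), with the standard error as a bar and grey lines between roles. Right, the difference of these effects, AhR-deficient minus wildtype, filled where the interaction passed: the 18 filled points all lie to the left of 0, from -0.69 to -2.39.

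Among the 4 genes of SREBP2, its escort Scap and the Insig proteins, Insig1 was the one that fell in both genotypes. Srebf2 (chr15:82147181-82205379) encodes the transcription factor itself. Its level ran from 30.9 to 163 CPM (median 94.7) in unstimulated wildtype and from 25.1 to 183 CPM (median 118) in unstimulated AhR-deficient BMDMs, and after LPS from 16.9 to 138 CPM (median 66.0) and from 11.1 to 90.6 CPM (median 39.3), respectively. All 4 groups overlapped widely. The LPS effect was -0.50 (SE 0.56) in wildtype and -1.27 (SE 0.57) in AhR-deficient BMDMs on the log2 scale, and neither passed (adjusted p = 0.527 and 0.0725). The effect in AhR-deficient BMDMs passed with the runs as a factor (-1.57, adjusted p = 0.00105), under DESeq2 and on total library size (adjusted p = 0.042 and 0.0194).

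Srebf2, Scap and Lpin1 were the members that varied most within groups. Their within-group SD on the log2 scale was 1.10, 0.88 and 1.32, beside a median of 0.39 over all genes tested, and larger than that of 94.3%, 89.9% and 97.2% of genes. Their merged exons are 7184, 7443 and 9930 bases long, and in every group each was lowest in a library with a slope below 0.25. Lss, with the longest merged exons at 10787 bases, had a within-group SD of 0.25. With the slope as a covariate, Srebf2 fell with LPS by 1.03 (SE 0.11) in wildtype and by 1.36 (SE 0.11) in AhR-deficient BMDMs on the log2 scale (adjusted p = 1.42e-08 and 6.762e-11), and after LPS it was lower in AhR-deficient BMDMs (-0.40, adjusted p = 0.00531). Scap, the sterol-sensing escort, then fell by 1.08 (SE 0.17) and by 0.65 (SE 0.16), where without the covariate its LPS effects were -0.60 (SE 0.46) and -0.70 (SE 0.46) and did not pass. In the 19 libraries with a slope of at least 0.25, a choice made after seeing the data, Srebf2 and Scap passed in AhR-deficient BMDMs (-1.35 and -0.82, adjusted p = 0.00645 and 0.00979) and not in wildtype (-0.30 and -0.38, adjusted p = 0.576 and 0.254).

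**Figure D3:**
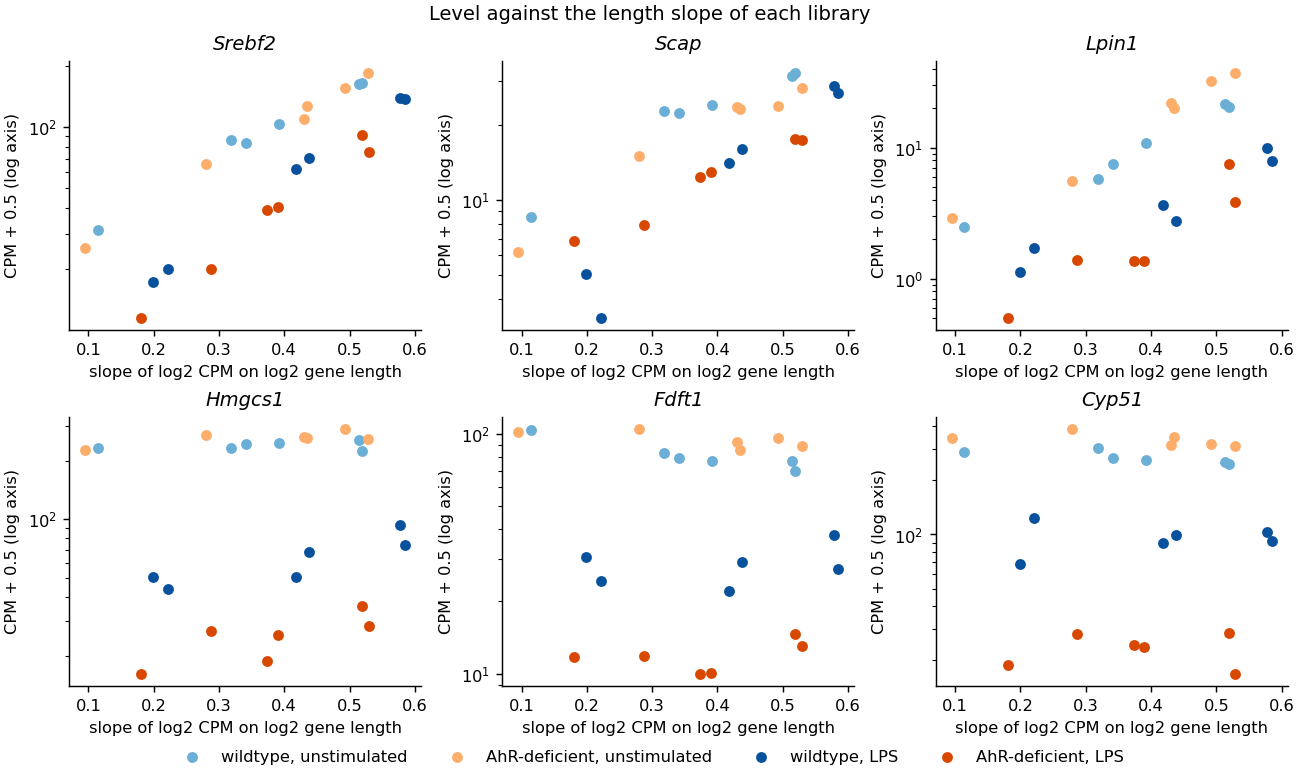
CPM + 0.5 on a log axis against the slope of log2 CPM on log2 gene length, with a point per library coloured by group. Srebf2, Scap and Lpin1 are, in each group, lowest in a library with a slope below 0.25, while for Hmgcs1, Fdft1 and Cyp51 every unstimulated library lies above every LPS-stimulated one over the whole range of slopes from 0.0952 to 0.585.

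Insig1 (chr5:28071363-28078662) holds Scap and SREBP2 in the endoplasmic reticulum and is itself an SREBP2 target. It was at 135 to 197 CPM (median 151) in unstimulated wildtype and 153 to 293 CPM (median 186) in unstimulated AhR-deficient BMDMs. After LPS it was at 55.8 to 80.0 CPM (median 69.2) in wildtype and 40.4 to 60.5 CPM (median 55.4) in AhR-deficient BMDMs. No stimulated library reached an unstimulated one, and the genotypes overlapped in both states. The fall was 2.24-fold in wildtype and 3.83-fold in AhR-deficient BMDMs, with an interaction of -0.78 (SE 0.21, adjusted p = 0.0382) that was lost when any 1 of 13 libraries was left out (adjusted p up to 0.069). The genotype difference of Insig1 after LPS, -0.40 (SE 0.15, adjusted p = 0.0917), did not pass. It passed with the runs as a factor, with the slope as a covariate and on total library size (-0.40, -0.43 and -0.61, adjusted p = 0.0412, 0.00113 and 0.000373). Insig2, the second Insig protein, is not known to follow SREBP2 in the same way. It ran from 26.6 to 62.1 CPM (median 32.9) without and from 35.8 to 85.0 CPM (median 71.2) with LPS in AhR-deficient BMDMs, overlapping groups between which it rose by a log2 fold change of 0.79 (SE 0.27, adjusted p = 0.0216). In wildtype its medians were 35.2 and 37.8 CPM, with a log2 fold change of 0.29 (SE 0.27) that did not pass. The genotype difference of Insig2 after LPS was 0.53 (SE 0.27, adjusted p = 0.261), and it passed as higher with the slope as a covariate (0.55, adjusted p = 0.0142) and in the 19 libraries (0.83, adjusted p = 0.00523). The rise of Insig2 was lost without library 28 or 39 (adjusted p up to 0.052) and on total library size (0.32, adjusted p = 0.206), where its effect in wildtype turned to -0.06. In the first of the 3 runs of 8 library numbers the effect in AhR-deficient BMDMs was -0.22, against 1.33 and 1.21 in the others.

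Stard4, a cytosolic sterol carrier switched on by SREBP2, fell steeply. Its range was 153 to 183 CPM (median 159) in unstimulated wildtype and 170 to 205 CPM (median 177) in unstimulated AhR-deficient BMDMs, and 26.1 to 54.7 CPM (median 35.4) and 10.2 to 29.5 CPM (median 13.3) after LPS. Both LPS groups were far below the unstimulated ones, and the genotypes overlapped after LPS. Stard4 kept 23% of its unstimulated mean in wildtype and 8.78% in AhR-deficient BMDMs (interaction -1.39, SE 0.30, adjusted p = 0.00666). Lpin1, a phosphatidate phosphatase that also feeds back on SREBP activity, was low and variable. It ran from 1.98 to 21.2 CPM and from 2.40 to 36.4 CPM without stimulation, and from 0.624 to 9.44 CPM and from 0 to 6.94 CPM after LPS, in wildtype and AhR-deficient BMDMs, respectively. These groups overlapped, and only the LPS effect in AhR-deficient BMDMs passed (-3.17, SE 0.91, adjusted p = 0.00632). With the runs as a factor Lpin1 also fell in wildtype (-1.66, adjusted p = 0.0165). With the slope as a covariate it did so too (adjusted p = 5.417e-06), and its interaction passed (-1.35, adjusted p = 0.0317). Lpin1 lies 18.9 Mb from Ahr and is the only member on its chromosome.

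Of the 7 genes from acetyl-CoA to the isoprenyl diphosphates, 6 fell with LPS in wildtype and all 7 in AhR-deficient BMDMs, and 6 had an interaction. Acat2 encodes the cytosolic thiolase that joins acetyl-CoA units. It was at 60.2 to 93.4 CPM (median 74.7) in unstimulated wildtype and 97.2 to 113 CPM (median 104) in unstimulated AhR-deficient BMDMs, which did not overlap, and differed by a log2 fold change of 0.48 (SE 0.12, adjusted p = 0.018). This call was lost on total library size (0.39, adjusted p = 0.244) and without the filter on low counts (adjusted p = 0.0726). After LPS the order turned round, with 13.8 to 20.8 CPM (median 19.3) in wildtype and 9.32 to 13.3 CPM (median 11.1) in AhR-deficient BMDMs (-0.69, SE 0.13, adjusted p = 0.000383), again without overlap. Over 65.6% of its transcript Acat2 is near-identical to Acat3 and Tcp1, so its counts are uncertain.

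Hmgcs1 (chr13:119690379-119708260) makes HMG-CoA and is a standard SREBP2 target. Its level was 225 to 256 CPM (median 238) in unstimulated wildtype and 226 to 291 CPM (median 262) in unstimulated AhR-deficient BMDMs, with overlap. With LPS it was 43.7 to 92.6 CPM (median 58.8) in wildtype and 15.7 to 35.6 CPM (median 25.7) in AhR-deficient BMDMs, without overlap. Hmgcs1 fell 3.80-fold in wildtype and 10.6-fold in AhR-deficient BMDMs. The difference between these effects was -1.47 (SE 0.25, adjusted p = 0.000998).

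The kinases and the decarboxylase that follow were less alike. Mvk, mevalonate kinase, went from a median of 37.3 to 14.5 CPM in wildtype and from 43.4 to 9.50 CPM in AhR-deficient BMDMs, without overlap between any stimulated and unstimulated library (interaction -0.94, SE 0.18, adjusted p = 0.0026). Pmvk, the next kinase, went from 34.4 to 40.5 CPM (median 35.5) to 22.6 to 32.8 CPM (median 28.8) in wildtype, a separation of groups that did not pass (-0.35, SE 0.15, adjusted p = 0.072). It passed with the runs as a factor (-0.36, adjusted p = 0.045), under limma-voom, with the slope as a covariate, with only the 12 libraries compared and on total library size (adjusted p = 0.0404, 0.0258, 0.0146 and 0.00119). In AhR-deficient BMDMs Pmvk went from 37.4 to 48.1 CPM (median 43.5) to 13.7 to 28.9 CPM (median 14.7), a fall by 1.31 (SE 0.15, adjusted p = 2.194e-07), and the interaction was -0.95 (SE 0.22, adjusted p = 0.0105).

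Mvd, the decarboxylase that closes the mevalonate part, behaved apart from its neighbours. It was at 77.5 to 113 CPM (median 99.5) in unstimulated wildtype and 137 to 184 CPM (median 172) in unstimulated AhR-deficient BMDMs, where no library overlapped and the difference was 1.75-fold (log2 0.81, SE 0.16, adjusted p = 0.0022). After LPS it was at 50.2 to 79.8 CPM (median 60.9) in wildtype and 52.6 to 108 CPM (median 92.6) in AhR-deficient BMDMs, with overlap. Mvd fell in both genotypes (-0.61, SE 0.16, and -0.98, SE 0.16), but its interaction of -0.38 (SE 0.23) did not pass, and after LPS its genotype difference was 0.43 (SE 0.16, adjusted p = 0.0905), the opposite sign to Hmgcs1. That difference passed with the slope as a covariate (0.42, adjusted p = 0.0308) and in the 19 libraries (0.56, adjusted p = 0.0459).

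Idi1, which isomerises isopentenyl diphosphate, and Fdps, which builds farnesyl diphosphate, both fell further in AhR-deficient BMDMs. Idi1 medians were 65.5 and 69.3 CPM without stimulation and 24.7 and 7.68 CPM with LPS, wildtype first, and no LPS library of one genotype overlapped the other (interaction -1.59, SE 0.41, adjusted p = 0.0273, lost without library 18, 26 or 35 with an adjusted p of up to 0.0525). Fdps was at 13.3 to 24.5 CPM (median 15.8) and 16.1 to 27 CPM (median 17.7) without stimulation, and at 2.03 to 4.74 CPM (median 2.81) and 0.303 to 1.11 CPM (median 0.86) with LPS. Its fold changes, 5.67 in wildtype and 24.1 in AhR-deficient BMDMs, and its interaction of -2.09 (SE 0.37, adjusted p = 0.00138) rest on low counts. Fdps shares 26.7% of its exon bases with Gm43738 and resembles 5 genes in all, and Idi1 resembles 3, so the counts of both are uncertain.

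In the isoprenoid branch, which leaves the pathway at farnesyl diphosphate, neither gene fell. Ggps1 makes geranylgeranyl diphosphate for protein prenylation. Its range was 21.5 to 27.9 CPM (median 26) in unstimulated wildtype and 17.4 to 22.1 CPM (median 20.1) in unstimulated AhR-deficient BMDMs, and 31.8 to 56.1 CPM (median 40.2) and 38.5 to 55.6 CPM (median 43.0) with LPS. Every stimulated library was above every unstimulated one. The genotype difference without stimulation, -0.34, did not pass, but did with the runs as a factor (-0.33, adjusted p = 0.0321), with the slope covariate (-0.33, adjusted p = 0.00505) and on total library size (-0.43, adjusted p = 0.0214). Ggps1 rose 1.65-fold in wildtype and 2.28-fold in AhR-deficient BMDMs (log2 0.72, SE 0.14, and 1.19, SE 0.14, adjusted p = 0.00017 and 1.659e-07), the only member to rise in both. Its interaction of 0.47 (SE 0.19) did not pass (adjusted p = 0.242), but did with a covariate for the length slope (0.43, adjusted p = 0.01), with the runs of library numbers as a factor (0.46, adjusted p = 0.042) and in the 19 libraries with a slope of at least 0.25 (0.60, adjusted p = 0.032). Ggps1 overlaps Arid4b on the opposite strand, which the strand-aware counting keeps apart, and resembles Gm5630.

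Dhdds (chr4:133969028-134000918) encodes a subunit of the enzyme that makes the dolichol precursor for glycosylation. It was at 69.6 to 88.9 CPM (median 73.7), 69.6 to 80.8 CPM (median 73.5), 66.5 to 82.0 CPM (median 71.6) and 59.3 to 82.0 CPM (median 70.5) in unstimulated wildtype, unstimulated AhR-deficient, LPS-stimulated wildtype and LPS-stimulated AhR-deficient BMDMs. All 4 ranges overlapped. Its log2 fold changes lay between -0.08 and 0.01 with standard errors of 0.10 (0.14 for the interaction), and its within-group SD of 0.13 was the smallest of the members.

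All 3 genes of the squalene and lanosterol steps fell in both genotypes and had an interaction. Fdft1, squalene synthase, takes farnesyl diphosphate into the sterol branch. Its range was 69.5 to 104 CPM (median 77.8) and 85.2 to 104 CPM (median 93.7) without stimulation, and 21.7 to 37.2 CPM (median 27.7) and 9.50 to 14.1 CPM (median 11.3) with LPS. Fdft1 did not overlap between genotypes after LPS, and its interaction was -1.52 (SE 0.19, adjusted p = 4.645e-05). It overlaps Ctsb on the opposite strand and resembles Gm6781.

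Sqle (chr15:59315077-59331192), squalene epoxidase, catalyses a rate-limiting step of the sterol branch. It was at 173 to 241 CPM (median 200) in unstimulated wildtype and 210.0 to 260 CPM (median 222) in unstimulated AhR-deficient BMDMs. With LPS it was at 38.1 to 61.8 CPM (median 47.7) in wildtype and 7.82 to 29.8 CPM (median 12.3) in AhR-deficient BMDMs, without overlap. Sqle kept 23.5% of its unstimulated mean in wildtype and 6.59% in AhR-deficient BMDMs (interaction -1.83, SE 0.32, adjusted p = 0.00136). Lss, which folds squalene epoxide into lanosterol, went from a median of 48.5 to 15.5 CPM and from 62.7 to 9.34 CPM, without overlap between the genotypes after LPS (interaction -1.14, SE 0.22, adjusted p = 0.00278).

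Between lanosterol and cholesterol, all 9 genes fell in both genotypes and 7 had an interaction. Cyp51 (chr5:4081145-4104746), the lanosterol demethylase, had the smallest interaction p of the members. It was at 246 to 302 CPM (median 262) in unstimulated wildtype and 309 to 386 CPM (median 331) in unstimulated AhR-deficient BMDMs. With LPS it was at 68.1 to 124 CPM (median 95.3) in wildtype and 16.3 to 28 CPM (median 23.4) in AhR-deficient BMDMs. In each state the genotypes did not overlap, with AhR-deficient BMDMs the higher before and the lower after LPS. Cyp51 kept 35.6% of its mean in wildtype and 6.79% in AhR-deficient BMDMs. Its interaction was -2.39 (SE 0.20, adjusted p = 2.352e-07), and after LPS it differed 4.19-fold between genotypes, whereas the difference of 0.33 (SE 0.14) without stimulation did not pass (adjusted p = 0.248), except with only the 12 libraries compared (0.35, adjusted p = 0.0403).

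Tm7sf2 and Lbr encode reductases for the same double bond, and Lbr is also an anchor of heterochromatin at the inner nuclear membrane. Tm7sf2 went from a median of 34.2 to 9.35 CPM in wildtype and from 44.5 to 4.77 CPM in AhR-deficient BMDMs (interaction -1.72, SE 0.43, adjusted p = 0.0213). Its genotype difference without stimulation of 0.59 (SE 0.30) did not pass (adjusted p = 0.418), but did with the runs as a factor (0.67, adjusted p = 0.036) and with the slope covariate (0.66, adjusted p = 5.545e-05). Tm7sf2 shares 12.1% of its exon bases with Vps51. Lbr was at 65.4 to 103 CPM (median 82.0) and 48.0 to 76.0 CPM (median 56.1) without stimulation and at 11.4 to 17.6 CPM (median 14.7) and 5.38 to 6.74 CPM (median 5.64) with LPS. AhR-deficient BMDMs had less Lbr in both states, with overlap only before LPS (-0.52, SE 0.14, adjusted p = 0.02, and -1.31, SE 0.14, adjusted p = 7.83e-07). It was the one member that passed as lower in unstimulated AhR-deficient BMDMs (Ggps1 joined it under the settings given above), a call lost without library 17, 18, 20, 27 or 28 (adjusted p up to 0.0682).

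Msmo1, Nsdhl and Hsd17b7 remove the methyl groups next to the sterol hydroxyl. Msmo1 had medians of 273 and 291 CPM without stimulation and 114 and 64.1 CPM with LPS, wide ranges up to 631 CPM, and an interaction of -0.94 (SE 0.42) that did not pass (adjusted p = 0.301). With a covariate for the length slope it was -1.06 (SE 0.22, adjusted p = 0.00137). The genotype difference of Msmo1 after LPS did not pass in the main fit. It passed with the runs as a factor, the slope covariate and total library size (-0.77, -0.85 and -0.98, adjusted p = 0.025, 0.000138 and 0.00334). It also passed in the 19 libraries (-0.57, adjusted p = 0.03). Nsdhl was higher in unstimulated AhR-deficient BMDMs, at 81.4 to 107 CPM (median 92) against 56.1 to 83.5 CPM (median 62.0), by 0.49 (SE 0.13, adjusted p = 0.0241) with overlap, a call lost without library 17, 18, 19, 25 or 26 (adjusted p up to 0.0675). After LPS its medians were 21.5 CPM in wildtype and 19.9 CPM in AhR-deficient BMDMs and the difference of -0.20 (SE 0.13) did not pass, while the interaction was -0.69 (SE 0.19, adjusted p = 0.035), lost when any 1 of 13 libraries was left out (adjusted p up to 0.0672). Hsd17b7 was at 15.7 to 32.2 CPM (median 22.5) in wildtype and 5.07 to 9.42 CPM (median 7.09) in AhR-deficient BMDMs after LPS, without overlap, from medians of 70.6 and 59.3 CPM (interaction -1.51, SE 0.32, adjusted p = 0.00644).

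The last steps split again. Ebp, the sterol isomerase, fell by 0.71 (SE 0.15) in wildtype and by 0.84 (SE 0.15) in AhR-deficient BMDMs on the log2 scale, from medians of 76.3 and 89.0 CPM to 47.9 and 50.8 CPM, with an interaction of -0.13 (SE 0.22). Sc5d, a sterol desaturase, went from medians of 89.6 and 95.5 CPM to 29.4 and 14.4 CPM, without overlap of the genotypes after LPS (interaction -1.25, SE 0.23, adjusted p = 0.00189). Dhcr7, a final reductase, was at 82.6 to 127 CPM (median 86.4) and 123 to 151 CPM (median 135) without stimulation, and at 13.2 to 23.2 CPM (median 20.3) and 8.88 to 18.6 CPM (median 14.1) with LPS. The genotypes overlapped in both states. Neither genotype difference of Dhcr7 passed (0.56, SE 0.18, adjusted p = 0.0682, and -0.47, SE 0.18, adjusted p = 0.0876), while its interaction did (-1.03, SE 0.25, adjusted p = 0.0176). With the runs as a factor both genotype differences of Dhcr7 passed (0.56 and -0.50, adjusted p = 0.0437 and 0.0454). The one without stimulation also passed under DESeq2, limma-voom, the slope covariate, only the 12 libraries compared and the 19 libraries (adjusted p = 0.00634 to 0.0282), and the one after LPS with the slope covariate and on total library size (adjusted p = 0.0224 and 0.0132).

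**Figure D4:**
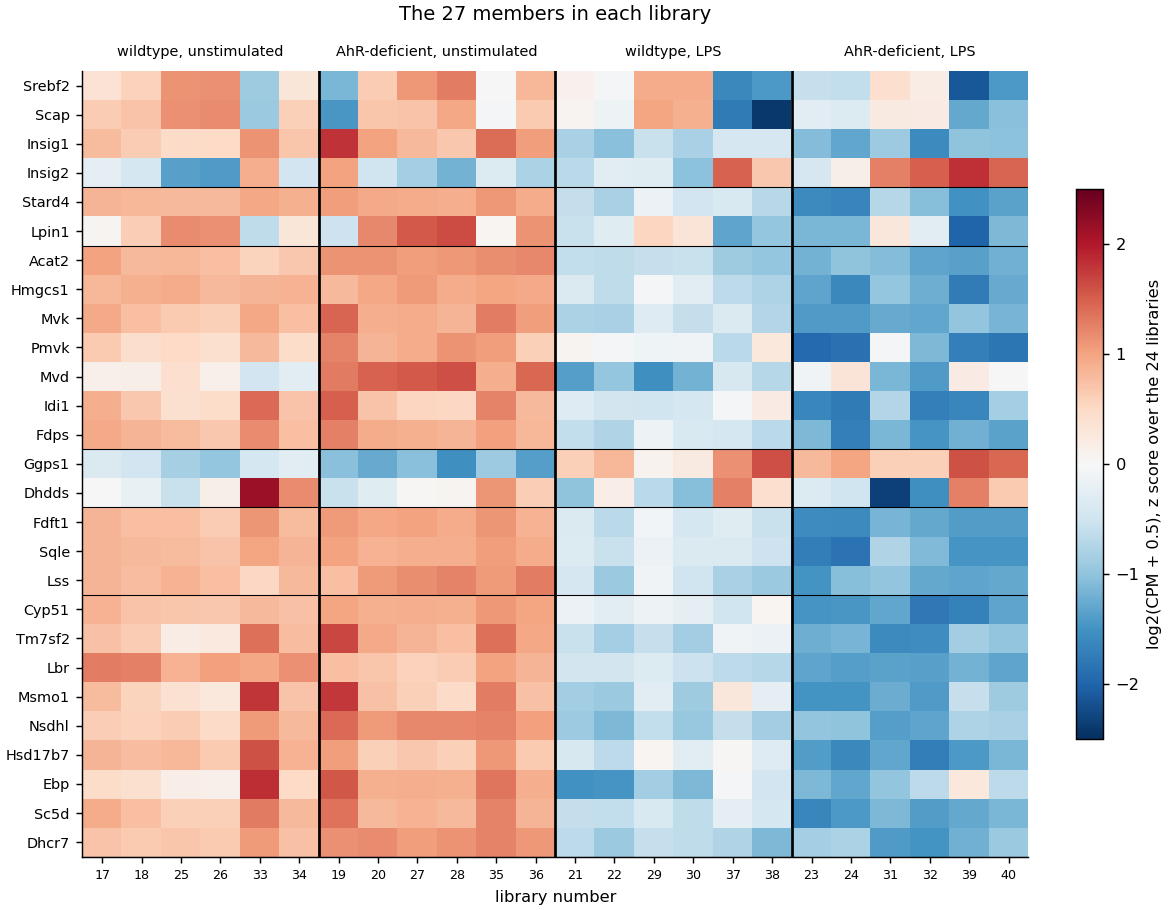
Each row is a member and each column a library, in 4 blocks by group, coloured by the z score of log2(CPM + 0.5) over the 24 libraries (red high, blue low). Most rows are red in both unstimulated blocks, pale blue in LPS-stimulated wildtype and darkest blue in LPS-stimulated AhR-deficient BMDMs. Exceptions are Insig2, Ggps1 and Dhdds. Mvd and Ebp are exceptions too, with a mean after LPS that was higher in AhR-deficient than in wildtype BMDMs.

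The order of the members changed with LPS. Per kilobase of merged exons, the scale on which genes can be set side by side, Cyp51 had the highest mean in unstimulated wildtype BMDMs at 60.8 ± 4.83 CPM per kb (mean ± SD, n = 6), with an SD bar that overlapped those of Msmo1, Mvd and Insig1. It was followed by Hmgcs1, Msmo1, Mvd and Insig1 at 52.0 ± 2.38, 51.8 ± 25.7, 51.4 ± 6.84 and 50.4 ± 7.34 CPM per kb, whose SD bars overlapped. Lpin1 was lowest at 1.11 ± 0.80 CPM per kb. In unstimulated AhR-deficient BMDMs Mvd led at 90.0 ± 8.88 CPM per kb, followed by Cyp51 at 76.2 ± 6.55, and the SD bars of these neighbours overlapped. With LPS Mvd led in both genotypes, at 33.7 ± 5.98 CPM per kb in wildtype and 45.5 ± 12.5 in AhR-deficient BMDMs. In LPS-stimulated wildtype its SD bar overlapped that of Msmo1 (20.5 ± 7.90). In LPS-stimulated AhR-deficient BMDMs the next places went to Ebp (22.9 ± 4.47), Dhdds (18.7 ± 2.23), Insig2 (18.4 ± 5.54) and Insig1 (17.1 ± 2.37), whose SD bars overlapped, and Cyp51 was at 5.17 ± 1.08 CPM per kb.

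Transcript levels of cell division genes and of markers of other cell types differed between the groups too. Of 10 cell division genes, 9 fell with LPS in each genotype (18.3% and 22.6% of all genes in wildtype and AhR-deficient BMDMs), from summed levels of 890 to 1090 and 907 to 1340 CPM to 115 to 200 and 119 to 224 CPM, in wildtype and AhR-deficient BMDMs, respectively. Ccnb1, a cyclin of mitosis named after its values were seen, was the only one of the 10 with an interaction (-2.28). Dendritic and Langerhans cell markers summed to 74.5 to 211 CPM in unstimulated wildtype, 10.1 to 19.1 CPM in unstimulated AhR-deficient, 580 to 2450 CPM in LPS-stimulated wildtype and 100 to 894 CPM in LPS-stimulated AhR-deficient BMDMs. Of 7 tested markers, 5 were lower and 1 (Clec9a, 1.34 on the log2 scale) was higher in AhR-deficient BMDMs without stimulation, and 6 were lower after LPS (of all genes 4.29% were lower and 1.83% higher before and 8.30% lower and 4.33% higher after LPS), with Cd209a without counts in LPS-stimulated wildtype and Cd207 in LPS-stimulated AhR-deficient BMDMs. Neutrophil markers summed to 1580 to 12600, 236 to 792, 709 to 8400 and 135 to 1020 CPM in the same order of groups, with 6 of 7 lower in AhR-deficient BMDMs without stimulation and 4 after LPS. Mast cell and basophil markers summed to 6.13 to 23.5, 1.98 to 4.19, 16.1 to 52.2 and 4.14 to 11.4 CPM, with 4 and 5 of 6 lower, and stromal markers to 5.29 to 34.4, 1.43 to 8.25, 5.65 to 34.7 and 12.5 to 34.5 CPM, with 1 of 5 lower before and 1 higher after LPS. The part of these genes' cells in the sterol results was not tested.

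Other genes that SREBPs control in lipid metabolism were counted from a fixed list of 13. With LPS 9 fell and 1 rose in wildtype (18.3% and 19.7% of all genes). In AhR-deficient BMDMs 10 fell and none rose (22.6% and 22.1%). The interaction passed for 6, with the more negative LPS effect in AhR-deficient BMDMs (2.34%). Between genotypes, 1 was higher and none lower without stimulation (1.83% and 4.29% of all genes), and 6 were lower and 1 was higher after LPS (8.30% and 4.33%). The higher one was Acss2, an acetyl-CoA synthetase named after its values were seen (1.58 and 0.62). Pcyt2, which makes an activated ethanolamine for phospholipids, and Tmem97, a sterol-responsive membrane protein, had interactions of -1.01 and -1.08 (adjusted p = 0.00392 and 0.0208). Fads1, a fatty acid desaturase, had one of -1.20 (adjusted p = 0.0351). Fads2, its partner, was chosen after its values were seen, and went from 83.8 ± 22.7 to 9.97 ± 6.78 CPM in wildtype and from 103 ± 31.7 to 0.961 ± 0.532 CPM in AhR-deficient BMDMs (mean ± SD, interaction -3.67, adjusted p = 0.000388).

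The genes that cleave SREBPs or send sterol enzymes to degradation were counted in the same way. Of 11, 4 rose and none fell with LPS in wildtype, and 4 rose and 1 fell in AhR-deficient BMDMs, beside 19.7% higher and 18.3% lower and 22.1% higher and 22.6% lower of all genes. Erlin1, a protein of the endoplasmic reticulum that binds SREBP and Scap, rose by 1.04 and 1.17 on the log2 scale. Rnf145, a sterol-responsive ubiquitin ligase, was the only one with an interaction (1.01, adjusted p = 0.0015), with an LPS effect of 0.09 in wildtype and 1.10 in AhR-deficient BMDMs.

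Among 9 tested genes of oxysterol synthesis and of LXR, the nuclear receptor for oxysterols, 3 rose and 3 fell in wildtype and 3 rose and 4 fell in AhR-deficient BMDMs, beside the same shares of all genes (19.7% and 18.3%, 22.1% and 22.6%). Ch25h, whose product holds SREBP2 back through the Insig proteins, rose by 3.02 in wildtype and 4.69 in AhR-deficient BMDMs on the log2 scale (interaction 1.67, adjusted p = 0.0163). It was the only gene of the list with an interaction. Scarb1, a receptor for high-density lipoprotein, fell by 1.43 and 1.80, and Cyp27a1, a mitochondrial oxysterol-forming enzyme, fell by 2.44 and 3.73. Whether Ch25h or any other of these genes had a part in the levels of the members was not tested.

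**Figure D5:**
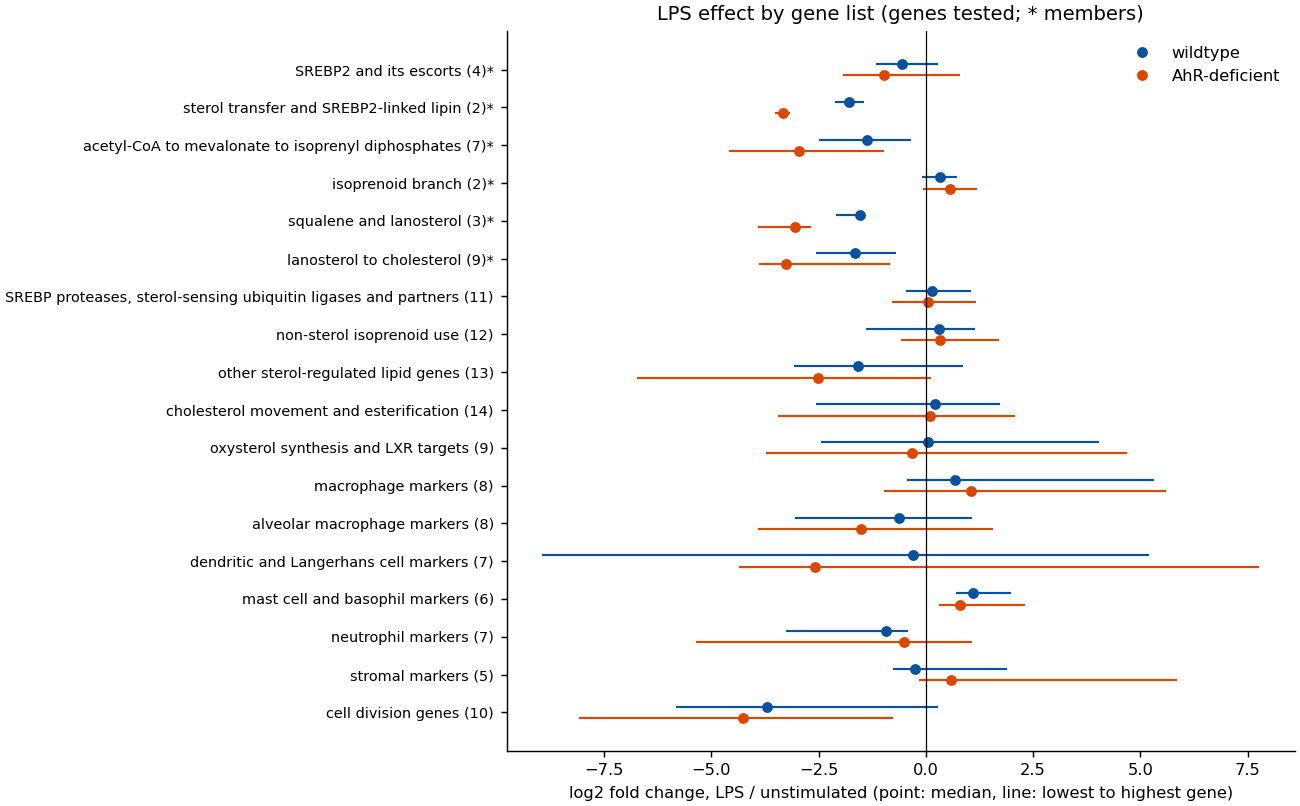
Log2 fold change of LPS-stimulated over unstimulated BMDMs (horizontal axis) by gene list, with the median as a point, the lowest to highest gene as a line and the number of genes tested in brackets, in wildtype (blue) and AhR-deficient BMDMs (orange). The sterol lists and the other sterol-regulated lipid genes (medians -1.59 and -2.51) lie to the left of 0 and further left in AhR-deficient BMDMs, while the medians of the isoprenoid branch and of the SREBP proteases and ligases lie to the right of 0.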

How the data were processed

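RNA was sequenced from BMDMs in 24 libraries, 6 for each of 4 groups taken from the labels. The authors demultiplexed with bcl2fastq 2.20.0, used GSNAP for alignment to mm10, and took fragments with a unique alignment into counts per Ensembl 98 gene with featureCounts 2.0.1, reverse-stranded. The deposited values are these counts, not normalized, and fragments that fit several genes alike are not in them. The 92 spike-in sequences, with 1 count in all, were left out. Depth was 45106052 to 76992663 counts per library, and the biological coefficient of variation was 49.1%.

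One edgeR 4.0.16 model (R 4.3.3) held all 24 libraries and a coefficient for each group. It used TMM factors, and filterByExpr kept 16593 genes. The test was the quasi-likelihood F-test in its robust form. P-values were adjusted by Benjamini-Hochberg over all genes tested. A gene passed at an adjusted p of at most 0.05 and was a DEG where its log2 fold change was also 1 or more in size, with no such minimum for the interaction. Standard errors are the log2 fold change divided by the root of F. The script was tested on simulated counts. Python 3.11.15 with pandas 2.3.3 and matplotlib 3.10.9 were used for summaries and plots. Near-identical genes were found in the transcripts of the reference, and promoters came from RefSeq.

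The members and all lists were chosen with earlier results of these data known. The rule for names took all 27 members, at most 3 genes of each other list, those with the smallest p in the interaction or in LPS in wildtype among genes that passed there, defining markers of cell types, and Ahr. Ahrr, an AhR target, was added outside this rule. The others are said to be named after their values were seen. The alternatives were DESeq2 size factors, total library size, DESeq2 1.42.0, limma-voom (limma 3.58.1), no filter, the 3 runs of 8 library numbers as a factor, the length slope as a covariate, only the 12 libraries compared, no minimum fold change, each library left out, and, chosen after seeing the data, only libraries with a slope of at least 0.25. The runs are consecutive library numbers, and the labels do not call them batches. The 13 other lists hold 119 genes of sterol control, lipid metabolism, isoprenoid use, cholesterol movement, oxysterols, cell types and cell division. No gene of the lymphocyte list passed the filter. The study's other assays were not analysed here.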

Additional observations from a re-analysis of the deposited data

Results flagged for a closer look

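The LPS effect differed between genotypes for 18 members by the interaction test. In each case it was more negative, a steeper fall, in AhR-deficient BMDMs. The differences of log2 fold changes, AhR-deficient minus wildtype, were -0.78 for Insig1 and -1.39 for Stard4. In the mevalonate part they were -1.17 for Acat2, -1.47 for Hmgcs1, -0.94 for Mvk, -0.95 for Pmvk, -1.59 for Idi1 and -2.09 for Fdps. In the squalene and lanosterol steps they were -1.52 for Fdft1, -1.83 for Sqle and -1.14 for Lss. Between lanosterol and cholesterol they were -2.39 for Cyp51, -1.72 for Tm7sf2, -0.78 for Lbr, -0.69 for Nsdhl, -1.51 for Hsd17b7, -1.25 for Sc5d and -1.03 for Dhcr7. The sign of all 18 was kept within the 3 runs of library numbers, and so was that of all other calls of members except the rise of Insig2 with LPS in AhR-deficient BMDMs (23 of 24 there).

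A single library stood apart by Dixon's test in 10 of the 108 groups of a member, where chance gives about 1 in 20. Of these, 6 were library 33 of unstimulated wildtype BMDMs, which was low for Lss at 39.2 CPM and high for Tm7sf2 at 68.0 CPM, Msmo1 at 631 CPM, Hsd17b7 at 149 CPM, Ebp at 120 CPM and Dhcr7 at 127 CPM. Library 33 had the lowest length slope of its group, 0.114. In LPS-stimulated AhR-deficient BMDMs, library 39, with the lowest slope of that group at 0.181, was high for Lbr at 6.74 CPM and for Ebp at 72.2 CPM, and library 31 was high for Pmvk at 28.9 CPM. In unstimulated AhR-deficient BMDMs, library 19, with the lowest slope of all at 0.0952, was high for Insig2 at 62.1 CPM. The part of the slope in these values was not tested.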

How the results depend on the processing

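No paired analysis was possible because the labels tie no library of one group to a library of another. The counts of DEGs, and of members with an interaction, were within 1.5 times those reported under the other alternatives, with these exceptions. Without a minimum fold change, 1 member was lower and 3 were higher in unstimulated AhR-deficient BMDMs, 1 rose with LPS in wildtype and 2 in AhR-deficient BMDMs. On total library size none rose as a DEG in AhR-deficient BMDMs (0). One member, Ggps1, had a higher LPS effect in AhR-deficient BMDMs with the runs as a factor (1), with the length slope as a covariate (1) and in the 19 libraries with a slope of at least 0.25 (1). No member's call changed sign. With each library left out, DEGs for genotype stayed at 0 to 0 in both directions without stimulation and were 10 to 11 lower and 0 to 0 higher after LPS. For LPS they were 18 to 18 lower and 0 to 0 higher in wildtype, and 20 to 21 lower and 1 to 2 higher in AhR-deficient BMDMs, the 2 being without library 19. The interaction passed for 15 to 18 lower and 0 to 0 higher. Of the values of single members, 3186 of those with a library left out kept their side of the threshold, 41 lost a call and 13 gained one. Under the other alternatives these were 1121, 11 and 56. In unstimulated BMDMs the genotype calls were 0 lower and 1 higher without the filter, and 0 lower and 5 higher with only the 12 libraries compared. They were 2 lower and 5 higher with the runs as a factor, and 2 lower and 8 higher with the length slope. Genotype calls after LPS were 18 lower and 0 higher with the runs as a factor, and 19 lower and 2 higher with the length slope. The interaction passed for 15 without the filter, where Insig1, Lbr and Nsdhl lost it (adjusted p = 0.0715, 0.06 and 0.0823), and Nsdhl also lost it on DESeq2 size factors (adjusted p = 0.054). Lbr and Nsdhl lost the call in unstimulated BMDMs without the filter (adjusted p = 0.0615 and 0.0598), Lbr also with only the 12 libraries compared (adjusted p = 0.0713), and Tm7sf2 lost the one after LPS under limma-voom (adjusted p = 0.0546). Total library size moved the median of all genes to -0.09, -0.26, -0.31 and -0.52 for genotype in unstimulated and in stimulated cells and for LPS in wildtype and in AhR-deficient BMDMs, and to -0.18 for the interaction, and there Dhdds passed as lower with LPS (-0.43 and -0.56). Insig1 and Nsdhl each lost the interaction without any 1 of 13 libraries, which were 17, 18, 19, 23, 24, 25, 26, 29, 32, 35 and 37 for both, 34 and 38 for Insig1 and 28 and 31 for Nsdhl. Fdps after LPS rests on under 5 CPM. The causes were not tested.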

Other observations

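Of 12 genes that use isoprenoids outside sterols, 2 rose and 3 fell with LPS in wildtype and 4 rose and 3 fell in AhR-deficient BMDMs, against 19.7%, 18.3%, 22.1% and 22.6% of all genes, and none had an interaction or a genotype difference. Rabggta, a subunit of the enzyme that prenylates Rab proteins, rose by 1.15 and 1.36 on the log2 scale. Icmt, which methylates prenylated proteins, rose by 0.55 and 0.68. Pdss1, a subunit that makes the side chain of ubiquinone, fell by 1.40 in wildtype, and its LPS effect in AhR-deficient BMDMs was -0.38 and did not pass.

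Of 14 genes that move, store or release cholesterol, 3 rose and 4 fell with LPS in wildtype and 4 rose and 4 fell in AhR-deficient BMDMs, near the same shares of all genes (19.7% and 18.3%, 22.1% and 22.6%). Between genotypes, 2 were higher and none lower in unstimulated AhR-deficient BMDMs (1.83% and 4.29% of all genes), and 4 were higher and 1 lower after LPS (4.33% and 8.30%). Their summed level after LPS was 3840 to 6330 CPM (median 4380) in wildtype and 6080 to 8890 CPM (median 7220) in AhR-deficient BMDMs, with overlap. Npc2, which hands cholesterol out of lysosomes, rose by 1.74 and 2.08, Lipa, the lysosomal acid lipase, fell by 1.32 and 1.41, and Nceh1, a cholesterol ester hydrolase, fell by 2.57 and 3.45. Vapa, a tether of the endoplasmic reticulum named after its values were seen, was the one gene of the list with an interaction. Its difference was 0.55.

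Of 8 macrophage markers, 3 rose and none fell in wildtype (19.7% and 18.3% of all genes) and 4 rose and 2 fell in AhR-deficient BMDMs (22.1% and 22.6%), and Fcgr1, an Fc receptor, was the one with an interaction (1.38). Of 8 alveolar macrophage markers, 4 fell and 1 rose in wildtype and 5 fell and 1 rose in AhR-deficient BMDMs, beside the same shares. Siglecf, a sialic acid-binding receptor, fell by 3.06 and 3.92, and Pparg, the nuclear receptor that alveolar macrophages depend on, fell by 1.53 and 2.21. Fabp5, a fatty acid-binding protein whose counts are uncertain because of the similar Fabp5l2, was the one with an interaction (-3.16), with LPS effects of -0.12 in wildtype, which did not pass, and -3.29 in AhR-deficient BMDMs.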
